A study of Homo sapiens with 8 samples.

Results

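The HES and HEY genes encode a family of transcriptional repressors, and they were followed here across HAP1 cells lacking SMARCB1, SMARCA4 or both. The 10 genes were HES1 to HES7, HEY1, HEY2 and HEYL, taken by symbol from the 19541 gene symbols of the authors' deposited table, which listed all of them. The family was selected on the deposited ratios of HES3, which were above 1 in every null but lower in the double null than the sum of both single-null values on the log2 scale. HES3 is therefore described with no test, and counts of significant genes are given over the 9 other members.

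HAP1 is an established human line with a nearly haploid genome. SMARCB1 is a core subunit, and SMARCA4 an ATPase, of SWI/SNF (BAF) remodellers of chromatin. RNA was sequenced from 8 samples in 4 groups of 2. The SMARCB1 nulls were sampled at passage 12, 1 sample with CRISPR guide 1 and 1 with guide 2, and the SMARCA4 nulls were sampled in the same way with their own guides 1 and 2. The double nulls carried SMARCB1 guide 1 with SMARCA4 guide 2 in both samples, at passages 15 and 18. Wildtype HAP1 cells were sampled at passages 9 and 12. All groups shared the parental line, the medium and harvest at 70% confluence. Both double-null samples had the same guide pair and later passages than the other groups, so passage and loss of both genes cannot be told apart. The labels do not state separate cultures, and the p-values of the edgeR tests below therefore measure only the spread between these samples. How the authors tested is not given, so which spread their own adjusted p-values measure is not known.

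HES and HEY proteins are basic helix-loop-helix factors with an Orange domain, and HES proteins recruit Groucho (TLE) corepressors. Members of the family repress other genes, among them proneural factors that drive neuronal differentiation. Several of them, HES1, HES5, HEY1, HEY2 and HEYL in particular, are textbook targets of Notch, whose cleaved intracellular part joins the DNA-binding protein RBPJ and a Mastermind (MAML) coactivator on their promoters. HES7 is known for oscillating in the presomitic mesoderm, and HES6 for opposing HES1 rather than acting like it.

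What the genes share in sequence was read from the 250 bases before each RefSeq start site (GRCh38.p14) of the 9 members whose promoter was searched. The hexamer TGGGAA, the core of the RBPJ site, was present on either strand in 6 of the 9, HES1, HES3, HES4, HES5, HEY2 and HEYL, against 20.8% of 35116 RefSeq promoters of the same length. The E box CACGTG was in 0 of the 9, against 6.34% of promoters, and the N box CACNAG was in 3, HES1, HES3 and HES7, against 32.0%. The 3 motifs were searched on both strands and cannot match the same 6 bases. The stretches below are the last 130 bases before the start site of the members with a match in that stretch. They are shown because they set HES3 and HES5, the genes with the largest ratios, beside HES1, with its pair of matches. Capitals mark TGGGAA, or TTCCCA where the match is on the opposite strand. They lie at chr3:194136018-194136147 (plus strand), chr1:6244049-6244178 (plus), chr1:1000098-1000227 (minus), chr1:2530264-2530393 (minus) and chr1:39639644-39639773 (minus), for HES1, HES3, HES4, HES5 and HEYL in that order, each printed 5′ to 3′ along its gene.
HES1: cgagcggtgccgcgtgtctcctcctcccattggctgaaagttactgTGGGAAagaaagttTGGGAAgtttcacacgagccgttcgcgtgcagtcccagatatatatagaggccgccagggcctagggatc
HES3: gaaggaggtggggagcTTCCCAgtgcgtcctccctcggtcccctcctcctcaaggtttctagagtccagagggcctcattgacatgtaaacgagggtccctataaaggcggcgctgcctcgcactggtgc
HES4: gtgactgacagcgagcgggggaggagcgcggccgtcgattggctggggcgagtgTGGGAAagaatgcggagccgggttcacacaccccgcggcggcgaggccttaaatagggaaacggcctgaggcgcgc
HES5: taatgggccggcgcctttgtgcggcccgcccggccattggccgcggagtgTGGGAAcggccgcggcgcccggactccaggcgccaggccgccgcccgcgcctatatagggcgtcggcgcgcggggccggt
HEYL: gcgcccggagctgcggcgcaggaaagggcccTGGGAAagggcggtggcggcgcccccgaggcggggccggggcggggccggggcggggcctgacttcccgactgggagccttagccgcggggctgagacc
HES1 held 2 copies, beginning 84 and 70 bases before the start, and HES4 and HES5 held theirs at 76 and 80 bases on the same strand. In HES3 the letters lay on the opposite strand, beginning 114 bases before the start. HES5 had a further match on the opposite strand 224 bases before the start, HEYL had matches at 99 and, on the opposite strand, 178 bases, and HEY2 had its match on the opposite strand at 213 bases. These matches are letters in a window and were not measured as bound sites.

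The deposited values were comparisons, and depth was worked out from them. The libraries held 67.9 to 103 M reads each, and those of a group are known only as the deeper and the shallower one, not by passage or guide. Whole reads per library were recovered for 3 members, HES3, HES5 and HEY2, and are given as counts per M reads (CPM). For the 7 others a group level was implied by the total reads and the 3 ratios, and its bounds are the levels that result if all reads lay in 1 library of each group. In the authors' deposited table the targeted genes fell as labelled, with SMARCB1 at 0.109 of wildtype in the SMARCB1 nulls and 0.182 in the double nulls, and SMARCA4 at 0.0918 in the SMARCA4 nulls and 0.152 in the double nulls. HAP1 descends from a leukaemia line, yet 6 of 7 measured haematopoietic markers lay under 0.1 CPM in wildtype, and the 7 summed to 1.11 CPM in the SMARCB1 nulls, 0.685 CPM in the SMARCA4 nulls, 2.48 CPM in the double nulls and 0.495 CPM in wildtype. The deeper double-null library stood apart, with 472 of 4359 recovered genes at over 4 times the CPM of every other library, against 36 genes in the deeper SMARCB1-null library and 0 to 7 in each of the others.

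HES3, known in mouse as a neural progenitor repressor, was nearly silent in wildtype cells and was read in all 6 null libraries. The SMARCB1 nulls gave 135 and 103 HES3 reads (1.92 and 1.52 CPM, deeper library first here and below). The SMARCA4 nulls gave 28 and 24 reads (0.304 and 0.336 CPM), and the double nulls 56 and 72 (0.544 and 0.951 CPM). Each wildtype library gave 1 read (0.0122 and 0.0146 CPM). The groups were thus ordered SMARCB1 null, double null, SMARCA4 null and wildtype, and no library of one group reached the range of another. Mean HES3 levels were 1.72 ± 0.287, 0.320 ± 0.0227 and 0.747 ± 0.288 CPM in the SMARCB1-null, SMARCA4-null and double-null cells and 0.0134 ± 0.00171 CPM in wildtype (SD, n = 2 each). In bulk RNA, fewer cells with the transcript and less transcript per cell cannot be told apart.

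The ratios of HES3 to wildtype in the authors' deposited table were 127 in the SMARCB1 nulls, 23.5 in the SMARCA4 nulls and 55.03 in the double nulls. Since wildtype rests on 2 HES3 reads in all, the summed reads per depth allow a wide range. The 95% exact (Clopper-Pearson) interval was 35.4 to 1074 in the SMARCB1 nulls, 6.27 to 202 in the SMARCA4 nulls and 14.6 to 449 in the double nulls, which covers counting error only. These intervals leave out the spread between libraries and are no test of HES3. The double nulls held 0.416 times the HES3 reads per depth of the SMARCB1 nulls and 2.26 times those of the SMARCA4 nulls, also with no test. The double-null libraries themselves differed, at 0.544 CPM in the deeper and 0.951 CPM in the shallower one. On the log2 scale the ratio was 6.98 in the SMARCB1 nulls, 4.56 in the SMARCA4 nulls and 5.78 in the double nulls, which lies 5.76 below additivity (a departure of -5.76). This departure is part of how the family was chosen and is a description.

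**Figure D1:**
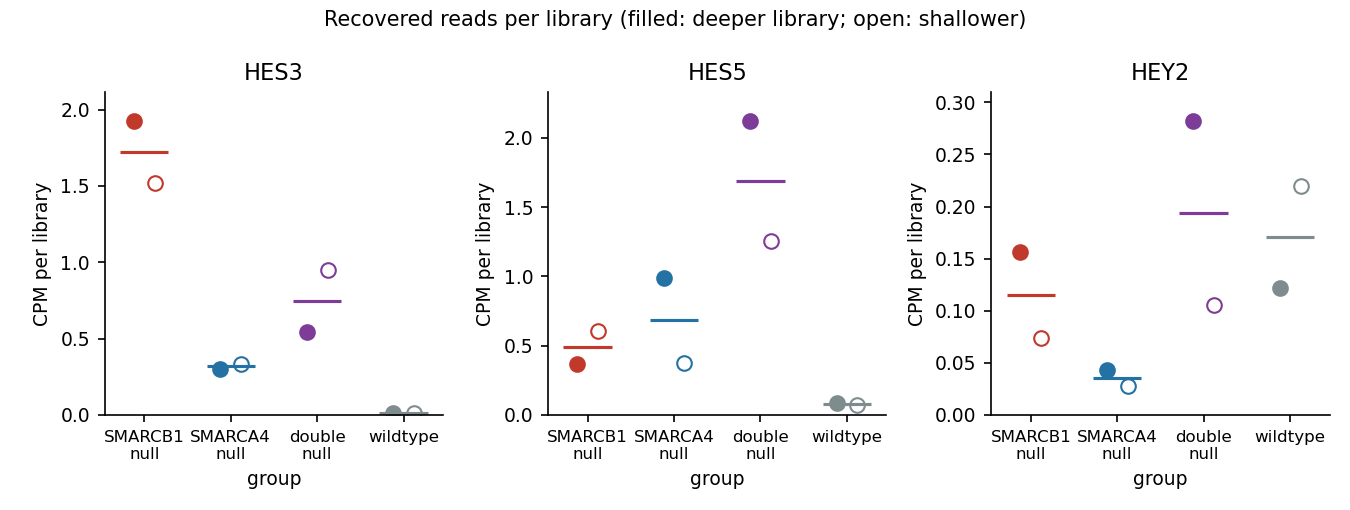
HES3, HES5 and HEY2 in CPM (vertical axes, from 0) in each of 8 libraries, by group (horizontal axes). Filled points are the deeper and open points the shallower library, and bars are means of 2 libraries. HES3 is highest in the SMARCB1 nulls, at 1.92 and 1.52 CPM, and HES5 in the double nulls, at 2.12 and 1.25 CPM, while the HEY2 libraries of the double nulls and wildtype overlap.

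HES5, a Notch target that keeps neural progenitors undifferentiated, rose in every null. The SMARCB1 nulls gave 26 and 41 HES5 reads (0.370 and 0.604 CPM), the SMARCA4 nulls 91 and 27 (0.986 and 0.378 CPM) and the double nulls 218 and 95 (2.12 and 1.25 CPM). The wildtype libraries gave 7 and 5 reads (0.0856 and 0.0732 CPM). All 6 null libraries lay above both wildtype libraries, both double-null libraries lay above every other library, and the single nulls overlapped. The ratios in the authors' deposited table were 6.12 in the SMARCB1 nulls (FDR 0.00405), 8.57 in the SMARCA4 nulls (FDR 0.000758) and 21.2 in the double nulls (FDR 3.07e-08). FDR stands here for the authors' adjusted p-value, and genes under 0.05 are called.

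In edgeR's quasi-likelihood test on recovered reads, with Benjamini-Hochberg adjustment over 2369 genes, HES5 rose by 2.59 ± 0.57 on the log2 scale in the SMARCB1 nulls (SE, adjusted p = 0.0146). The same edgeR test gave 3.08 ± 0.56 in the SMARCA4 nulls (adjusted p = 0.0070) and 4.38 ± 0.57 in the double nulls (adjusted p = 0.000682), all against wildtype. Of the genes in these tests, 14.9%, 14.3% and 26.5% were called in the SMARCB1-null, SMARCA4-null and double-null cells. The double nulls were 1.79 ± 0.48 above the SMARCB1 nulls (edgeR, adjusted p = 0.0706) and 1.30 ± 0.46 above the SMARCA4 nulls (adjusted p = 0.0964), and neither difference passed the threshold, as 4.22% and 14.5% of all genes tested did. The HES5 departure from additivity was -1.29 ± 0.73 in edgeR (adjusted p = 0.390), against 5.07% of genes called for that contrast. Leaving out a library ended several HES5 calls while the change stayed large. Without the deeper or the shallower wildtype library the edgeR adjusted p was 0.233 or 0.266 in the SMARCB1 nulls, 0.195 or 0.232 in the SMARCA4 nulls and 0.0762 or 0.0819 in the double nulls, and it also exceeded 0.05 without either SMARCB1-null library (0.0940 and 0.172) or the deeper SMARCA4-null library (0.116). The log2 changes without the deeper or the shallower wildtype library were 2.71 or 2.49 in the SMARCB1 nulls, 3.19 or 2.98 in the SMARCA4 nulls and 4.50 or 4.28 in the double nulls. The cause of the lost calls was not tested.

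The summed level of neuronal markers was also highest in the double nulls. The summed implied level of 15 neuronal markers was 53.1 CPM in the SMARCB1 nulls, 150 CPM in the SMARCA4 nulls, 2462 CPM in the double nulls and 180 CPM in wildtype, with 0, 1, 0 and 1 of them under 0.1 CPM in these groups. In the double nulls of the authors' deposited table, 2 of the 15 were called higher (NEFL and SYN1), a share near the 12% of all genes called higher there, and 0 were called in each single null. By value alone 14 of the 15 lay above wildtype in the double nulls, and SYT1 lay below it, at 42.2 CPM in the double nulls and 74.0 CPM in wildtype. The chromogranin gene CHGA gave 6672 reads in the deeper and 14 in the shallower double-null library. Without the deeper double-null library, the HES5 rise of the double nulls over wildtype was 3.95 on the log2 scale (edgeR, adjusted p = 0.000189). HES3, with 56 reads in the deeper and 72 in the shallower double-null library, was lower per depth in the deeper library. CHGA is the one of the 15 neuronal markers with recovered reads, so the split of the others between the libraries is not known. The part of neuronal transcripts in the HES5 and HES3 values was not tested.

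Of the 9 members other than HES3, 1 was called in the SMARCB1 nulls of the authors' deposited table (HES5, higher), against a background of 13.6% of all genes, 7.86% higher and 5.76% lower. In the SMARCA4 nulls 3 of the 9 were called (HES4, HES5 and HEY1, all higher), against 11.9% of all genes, 7.39% higher and 4.49% lower. In the double nulls 1 of the 9 was called (HES5, higher), against 18% of all genes, 12% higher and 5.97% lower. HES5 was thus among the 606 genes (3.1% of the table) called higher in all 3 nulls. Of the 9 members, 4, 6 and 7 lay above wildtype in the SMARCB1-null, SMARCA4-null and double-null cells before any test. The 7 became 6, without HES1, when ratios were centred on the median gene, which stood 0.112 above wildtype on the log2 scale, and 4 with the shift of -0.30 that TMM scaling gave. The median log2 ratio of the 9 was -0.16, 0.85 and 0.24 in the SMARCB1-null, SMARCA4-null and double-null cells, against 0.06, 0.03 and 0.17 over all genes.

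**Figure D2:**
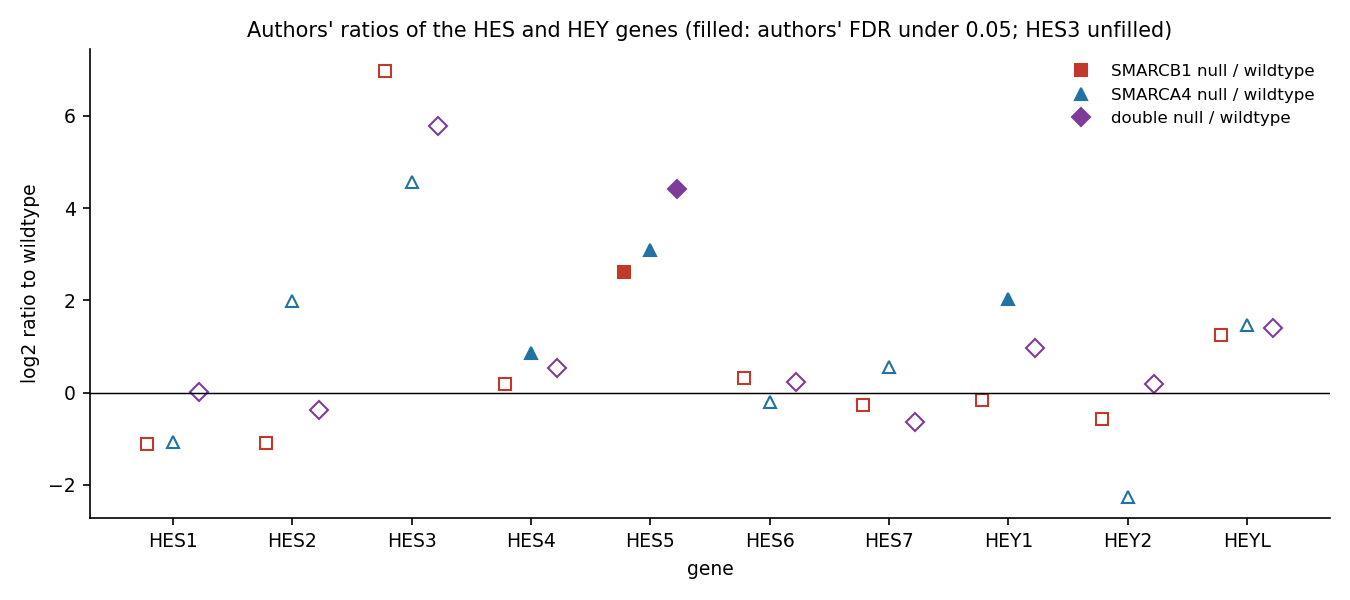
Log2 ratio to wildtype (vertical axis) of the 10 HES and HEY genes (horizontal axis) in the SMARCB1 null (squares), SMARCA4 null (triangles) and double null (diamonds), from the authors' deposited table. Filled symbols have an FDR under 0.05, and HES3 is drawn unfilled because its values chose the family. HES5 is filled in all 3 comparisons, while HES4 and HEY1 are filled in the SMARCA4 null and no tested member is filled below 0.

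HEY1, a Notch target of vessels and of many other tissues, rose in the SMARCA4 nulls. Its implied level was 5.33 CPM in the SMARCB1 nulls, 24.3 CPM in the SMARCA4 nulls, 11.7 CPM in the double nulls and 5.96 CPM in wildtype. The ratio in the authors' deposited table was 4.07 in the SMARCA4 nulls (FDR 0.00564), 1.96 in the double nulls (FDR 0.338) and 0.893 in the SMARCB1 nulls (FDR 0.969). The double nulls were at 0.480 of the SMARCA4-null HEY1 level, a ratio of the deposited ratios for which no test could be made. The summed implied level of 10 endothelial markers was 23.1, 20.7 and 22.2 CPM in the SMARCB1-null, SMARCA4-null and double-null cells and 25.1 CPM in wildtype, of which EGFL7 gave 18.9, 14.5 and 18.1 CPM in these nulls and 14.4 CPM in wildtype. Of the 10, ESAM alone was called in the authors' deposited table. It was higher in the SMARCA4 nulls (ratio 2.09, FDR 2.42e-10) and lower in the SMARCB1 nulls (ratio 0.713, FDR 0.0117). Of all genes, 7.39% were called higher in the SMARCA4 nulls and 5.76% lower in the SMARCB1 nulls. FLT1, another of the 10, had an implied level of 0.0950 CPM in the SMARCA4 nulls and 7.43 CPM in wildtype, with no call. The part of endothelial transcripts in the HEY1 values was not tested.

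HES4, a Notch-responsive gene without a mouse counterpart, rose in the SMARCA4 nulls. Its implied level was 33.4 CPM in the SMARCB1 nulls, 53.0 CPM in the SMARCA4 nulls, 42.8 CPM in the double nulls and 29.4 CPM in wildtype. The authors' deposited table gave a ratio of 1.80 in the SMARCA4 nulls (FDR 0.0270), 1.45 in the double nulls (FDR 0.222) and 1.13 in the SMARCB1 nulls (FDR 0.840). The HES4 call was lost at an FDR threshold of 0.01 and under a 2-fold condition.

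HEYL, another Notch target, lay above wildtype in every null without passing the threshold. Its implied level was 12.6, 14.6 and 13.98 CPM in the SMARCB1-null, SMARCA4-null and double-null cells and 5.29 CPM in wildtype. The ratios in the authors' deposited table were 2.38 (FDR 0.212), 2.75 (FDR 0.120) and 2.64 (FDR 0.107) in that order. The double nulls were at 1.11 times the SMARCB1-null and 0.960 times the SMARCA4-null HEYL level, with no test, and HEYL departed from additivity by -1.31.

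HES1, a widely used Notch readout, had lower values than wildtype in both single nulls, and a value near wildtype in the double nulls, without passing the test. Its implied level was 3.30 CPM in the SMARCB1 nulls, 3.39 CPM in the SMARCA4 nulls, 7.18 CPM in the double nulls and 7.11 CPM in wildtype. The ratios in the authors' deposited table were 0.464 (FDR 0.470) in the SMARCB1 nulls, 0.476 (FDR 0.530) in the SMARCA4 nulls and 1.01 (FDR 0.995) in the double nulls. The departure from additivity was 2.19, opposite in sign to that of HES3.

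HEY2, a Notch target of the heart and arteries, was low in every group. The SMARCB1 nulls gave 11 and 5 HEY2 reads (0.157 and 0.0736 CPM), the SMARCA4 nulls 4 and 2 (0.0434 and 0.0280 CPM), and the double nulls 29 and 8 (0.282 and 0.106 CPM). The wildtype libraries gave 10 and 15 reads (0.122 and 0.220 CPM). Both SMARCA4-null libraries lay below all others, and the other 3 groups overlapped. In edgeR HEY2 was 2.18 ± 0.80 below wildtype in the SMARCA4 nulls (log2 change -2.18, adjusted p = 0.10), and the double nulls were 2.39 ± 0.78 above the SMARCA4 nulls (adjusted p = 0.0673). Neither passed. The authors' deposited table likewise gave a ratio of 0.209 with an FDR of 0.143 for the SMARCA4 nulls, and 0.674 (FDR 0.764) and 1.13 (FDR 0.973) for the SMARCB1 and double nulls. The departure of HEY2 from additivity was 2.94 ± 1.06 (edgeR, adjusted p = 0.158).

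HES6, HES7 and HES2 did not pass the test in any null. HES6 was the highest member, with implied levels of 83.5, 58.1 and 78.9 CPM in the SMARCB1-null, SMARCA4-null and double-null cells and 66.9 CPM in wildtype. Its ratios in the authors' deposited table, 1.25 (FDR 0.377), 0.868 (FDR 0.739) and 1.18 (FDR 0.503), ran from 0.868 to 1.25 over the 3 nulls. HES7 had implied levels of 16.3, 28.96 and 12.6 CPM in the SMARCB1-null, SMARCA4-null and double-null cells and 19.6 CPM in wildtype, and its ratios in the authors' deposited table were 0.834 (FDR 0.819), 1.48 (FDR 0.421) and 0.641 (FDR 0.377). HES2, a less studied member, had 452 reads over all samples and implied levels of 0.211, 1.78 and 0.350 CPM in these nulls and 0.453 CPM in wildtype. Its ratios in the authors' deposited table were 0.466 (FDR 0.815), 3.94 (FDR 0.379) and 0.772 (FDR 0.913) in the same order.

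**Figure D3:**
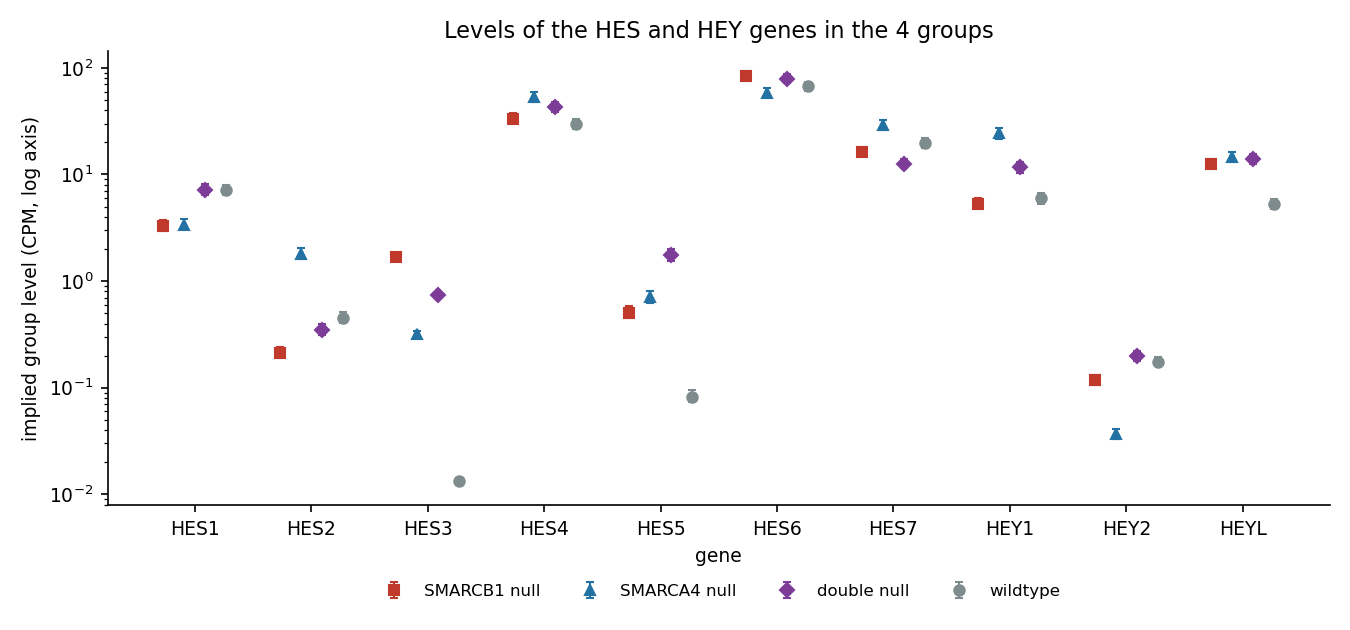
Implied group level in CPM (vertical log axis) of the 10 genes (horizontal axis) in the SMARCB1 null, SMARCA4 null, double null and wildtype. Bars are the bounds set by the unknown split of reads between the 2 libraries of a group, not replicate error. HES3 and HES5 have the lowest wildtype levels, and HES6 has the highest level in every group.

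Per kilobase of exon (GENCODE v29), the order of the members in wildtype was led by HES6 at 37.9, HES4 at 28.3 and HES7 at 11.7 CPM per kilobase, followed by HES1 at 4.51, HEY1 at 2.31 and HEYL at 1.45. HES2, HEY2 and HES5 followed at 0.0838, 0.0639 and 0.0630 CPM per kilobase, and HES3 was last at 0.0190. In the SMARCB1 nulls HES3 reached 2.44 CPM per kilobase, which is above the 2.09 of HES1 and the 2.07 of HEY1 there, so that it was no longer among the lowest members. HES5 reached 1.34 CPM per kilobase in the double nulls, against 4.55 for HES1 in the same cells. The 3 members with the highest wildtype level per kilobase had ratios between 0.641 and 1.80 in the authors' deposited table.

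Across the family, the double-null values lay on both sides of additivity on the log2 scale, by value and mostly without a test. The double-null value was lower than the sum of the single-null values for 7 members, HES2 (-1.25), HES3 (-5.76), HES4 (-0.49), HES5 (-1.31), HES7 (-0.94), HEY1 (-0.90) and HEYL (-1.31). It was higher for 3, HES1 (2.19), HES6 (0.12) and HEY2 (3.01). These values come from the authors' deposited table and use the wildtype samples in all 3 ratios. Only HES5 and HEY2 have a test, given above, and neither passed with all 8 libraries (edgeR, adjusted p = 0.390 and 0.158). HES3 was among the 7 because the family was chosen on it. Of the 9 members other than HES3, 3 lay above additivity, against 10462 of the 19541 genes of the table. The median departure of the 9 was -0.90, against 0.04 over all genes of the table.

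**Figure D4:**
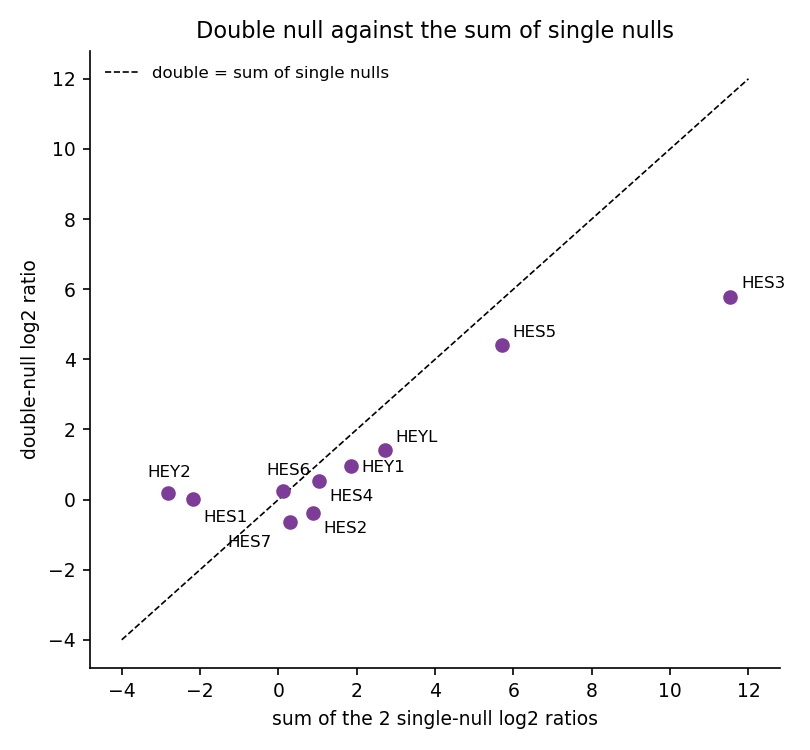
Double-null log2 ratio to wildtype (vertical axis) against the sum of the SMARCB1-null and SMARCA4-null log2 ratios (horizontal axis) for the 10 genes. The dashed line is where both are equal. HES3 lies 5.76 below the line, and HEY2 and HES1 lie 3.01 and 2.19 above it.

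The gene whose 3 log2 ratios lay nearest to those of HES3, among 15633 genes with at least 200 reads, was SYBU, at a Euclidean distance of 0.993. ERBB4 and CHRNA9 followed at 1.27 and 1.74. SYBU had log2 ratios of 6.37, 3.96 and 5.28 in the SMARCB1-null, SMARCA4-null and double-null cells in the authors' deposited table, in the same order as HES3. ERBB4 and CHRNA9 were instead highest in the double nulls, at 6.12 and 7.23, against 5.79 and 6.09 in the SMARCB1 nulls. The genes nearest to HES1 were IGIP (0.148), PCDH12 (0.171) and TTYH1 (0.172), and none of these 3 was called in any null. The likeness covers 3 ratios that share wildtype samples.

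Of the 10 genes, 5 lie on chromosome 1, and HES3 and HES2 are separated there by GPR153 and ACOT7 in the RefSeq gene order (GRCh38.p14). In the authors' deposited table GPR153, an orphan receptor gene, was called in the double nulls (ratio 3.74, FDR 0.00162), and the thioesterase gene ACOT7 in the SMARCB1 nulls (ratio 0.716, FDR 0.0337). ICMT, on the other side of HES3, was called in no null. Next to HES5, PANK4 was called in no null. Further along, beyond TNFRSF14-AS1, the receptor gene TNFRSF14 was higher in the SMARCA4 nulls (ratio 4.44, FDR 0.00702) and the double nulls (ratio 3.04, FDR 0.0180) of the authors' deposited table, with a ratio of 2.18 (FDR 0.0916) in the SMARCB1 nulls. Near HES4, PERM1 had a ratio of 3.26 in the SMARCA4 nulls (FDR 0.000302) in that table, called in the same null as HES4, while ISG15 on the other side of HES4 was called in no null. PER2, next to HES6, was called in all 3 nulls, with small changes that differed in direction. Its ratios were 1.13 in the SMARCB1 nulls (FDR 0.000425), 0.966 in the SMARCA4 nulls (FDR 0.0328) and 1.17 in the double nulls (FDR 0.000143). HPCAL4, near HEYL, was called in the double nulls (ratio 11.3, FDR 0.0130). HES6 and HEYL were called in no null. Of all genes, 13.6%, 11.9% and 18% were called in the SMARCB1-null, SMARCA4-null and double-null cells. The other measured neighbours, up to 2 genes away from each member, are not all named.

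The counts of calls in the Notch pathway lists are small and are to be read against the 13.6%, 11.9% and 18% of all genes called in the SMARCB1-null, SMARCA4-null and double-null cells. Of the Notch ligands in the authors' deposited table, 2 of 8 rose and 1 fell in the SMARCB1 nulls, 1 rose and 1 fell in the SMARCA4 nulls, and 3 rose and 1 fell in the double nulls, with median log2 ratios of 0.50, 0.30 and 0.85. DLL3, a ligand that acts inside the cell against Notch, rose in all 3 (log2 ratios of 1.24, 0.52 and 1.66 in the SMARCB1-null, SMARCA4-null and double-null cells). The activating ligand DLL1 fell in the SMARCA4 nulls (-2.20) and rose in the double nulls (1.09). Of 4 receptors NOTCH1 was the one called, and it was lower in every null (-0.64, -0.70 and -0.88). Among 14 glycosylation and cleavage genes, 1 rose and 2 fell in the SMARCB1 nulls, 3 rose in the SMARCA4 nulls, and 2 rose and 1 fell in the double nulls. Of 10 genes of the nuclear complex, MAML3 and SPEN fell in the SMARCB1 nulls, MAML3 fell and MAML2 rose in the SMARCA4 nulls, and SPEN fell in the double nulls. The coactivator MAML3 had log2 ratios of -2.75 in the SMARCB1 nulls, -2.68 in the SMARCA4 nulls and -0.64 in the double nulls (FDR 0.378) in the authors' deposited table. Of 12 trafficking and turnover genes 3, NEURL1B, MIB1 and FBXW7, rose in the double nulls and 0 were called in the single nulls. Among 8 other targets of Notch, 2 rose and 2 fell in the SMARCB1 nulls, 1 rose and 1 fell in the SMARCA4 nulls, and 2 rose and 2 fell in the double nulls. The feedback inhibitor NRARP fell in the SMARCB1 and double nulls (-0.66 and -0.84), while the cyclin gene CCND1 rose in the same nulls (2.83 and 2.58).

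Of 6 Groucho family genes, 4 were called in each null of the authors' deposited table. Of all genes there, 13.6%, 11.9% and 18% were called in the SMARCB1-null, SMARCA4-null and double-null cells. TLE1, TLE2 and TLE4 rose and TLE3 fell. The median log2 ratio of the 6 was 0.80, 1.51 and 1.35 in the SMARCB1-null, SMARCA4-null and double-null cells. TLE1 had log2 ratios of 4.67, 3.65 and 4.64 in the SMARCB1-null, SMARCA4-null and double-null cells, with implied levels of 41.8, 20.7 and 41.1 CPM, against 1.65 CPM in wildtype. TLE3, the most abundant of the named TLE genes in wildtype at 153 CPM, was at 82.6, 101 and 81.1 CPM in these nulls. HELT, a related Orange-domain repressor, rose in all 3 nulls. The authors' deposited table gave HELT a ratio of 47.9 in the SMARCB1 nulls, 6.06 in the SMARCA4 nulls and 83.3 in the double nulls, over 787 reads in all. ID proteins, which bind basic helix-loop-helix partners without binding DNA, rose for 2 of 4 genes in each single null (ID1 and ID3) and for 3 of 4 in the double nulls (ID1, ID2 and ID3).

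Of 14 proneural basic helix-loop-helix genes listed in the authors' deposited table, 0 were called higher and 2 lower in each single null, and 2 were called higher and 2 lower in the double nulls, with median log2 ratios of -0.02 in the SMARCB1 nulls, -0.54 in the SMARCA4 nulls and 2.92 in the double nulls. Of all genes, 7.86% were called higher and 5.76% lower in the SMARCB1 nulls, 7.39% and 4.49% in the SMARCA4 nulls, and 12% and 5.97% in the double nulls, so the count of 2 higher in the double nulls is near the background. Some of the 14 had few reads over all samples, such as ATOH7 with 15 and ASCL2 with 17, which limits the medians. NEUROD1 gave 65 reads in the deeper and 0 in the shallower double-null library, and ASCL2 gave 5 and 2. NEUROD2 gave 228 and 48 reads in the double-null libraries and 7 to 22 in each of the 6 others. The oligodendrocyte factor OLIG2 fell in the SMARCB1 nulls (-3.01) and the double nulls (-2.74). The part of the other neuronal transcripts of the double nulls in these values was not tested.

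**Figure D5:**
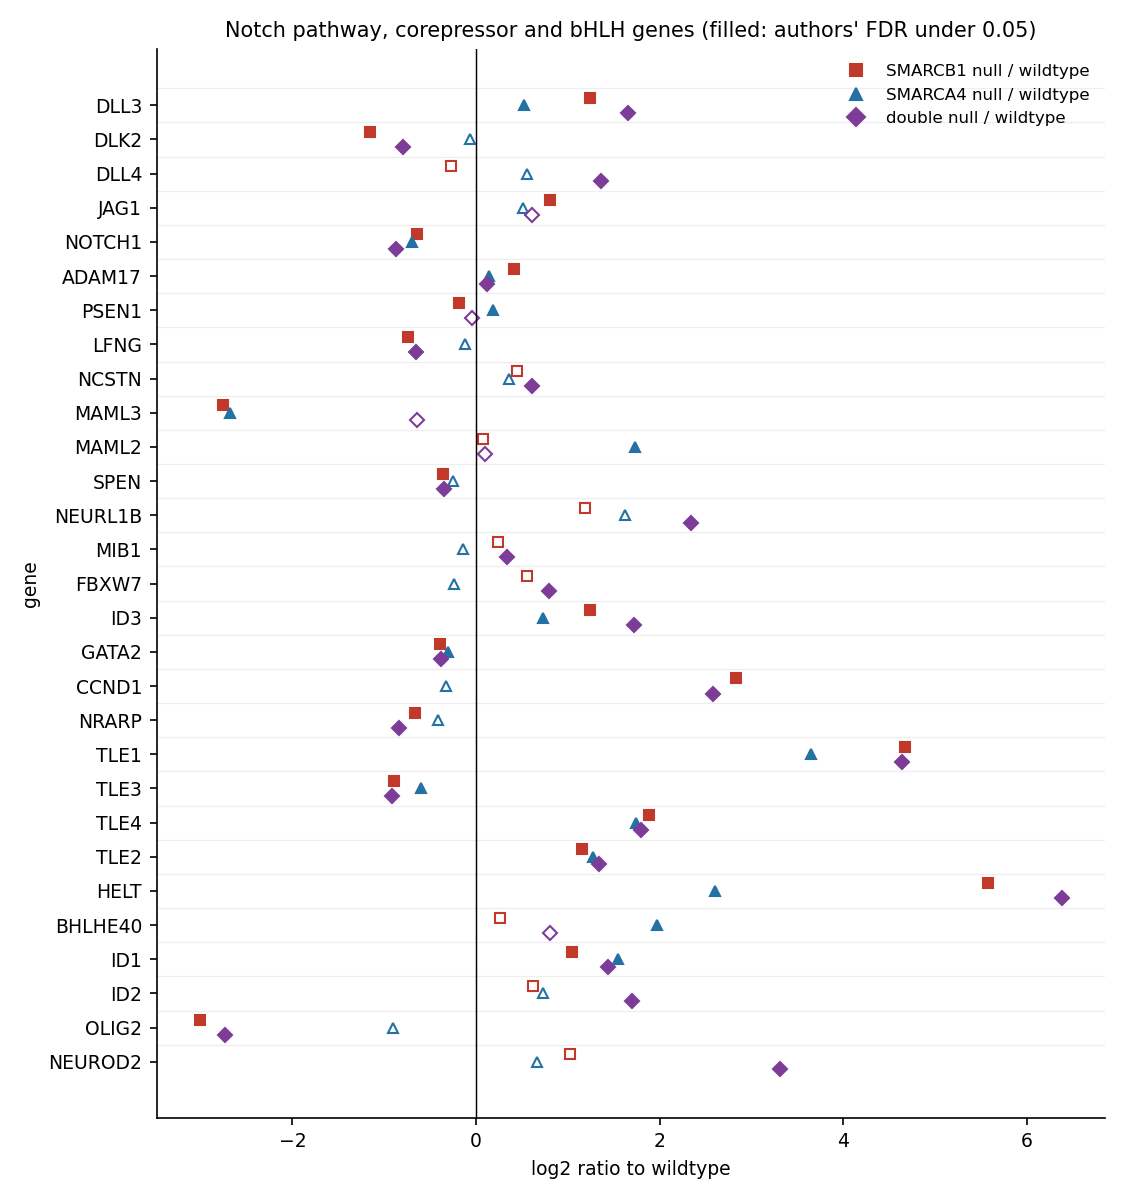
Log2 ratio to wildtype (horizontal axis) of named Notch pathway, corepressor and basic helix-loop-helix genes (vertical axis) in the SMARCB1 null (squares), SMARCA4 null (triangles) and double null (diamonds), from the authors' deposited table, filled where the FDR is under 0.05. OLIG3 is left out because it is listed near 0 CPM in the nulls. TLE1 lies at 4.67, 3.65 and 4.64 and HELT reaches 6.38 in the double null.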

How the data were processed

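RNA from HAP1 cells was made into stranded mRNA libraries, per the labels' protocols, and processed with STAR and Partek 4.0 on hg19, per the submitters' processing notes. The table deposited by the authors holds, per the file headers, a total read number per gene (an estimated count), and for each null against wildtype a ratio, a signed fold change (a score in sign), a p-value and its FDR adjustment. How the authors tested and scaled is not given in the sources used.

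A gene was called at an authors' FDR under 0.05. Reads per library were recovered by solving the 3 ratios and a whole total for whole reads, which succeeded for 4359 of 6182 genes tried and for 0 of 500 and 0 of 100 decoys with shifted ratios. Totals up to 600 were solved to a relative tolerance of 3e-07 and larger ones to 1e-09. Other group levels were implied by totals and ratios. On recovered genes their median error was 0.486% to 0.861%, depending on the group. The 95th percentile of the error was 15.0% in the double nulls and 2.97% to 3.49% in the other groups. Recovered reads of 2369 genes entered the robust quasi-likelihood test of edgeR 4.0.16, over 8 libraries with Benjamini-Hochberg adjustment. Library sizes were the depths worked out from the deposited ratios and totals. The recovery and the tests were tested on simulated data. The alternatives were TMM scaling, DESeq2 1.42.0, other thresholds and filters, and each library left out. CPM is counts per M reads, and SD is over 2 libraries. Promoters are RefSeq sequences on GRCh38.p14, while the authors' build was hg19.

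The members and gene lists were chosen with earlier results of these data known. All members are named. From each list, genes with an FDR under 0.05 in any null and at least 50 reads were eligible for naming, up to 4 per list by smallest FDR. DLL1 and the neighbouring genes were named after their values were seen. Values of some genes eligible for naming are not reported here.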

Additional observations from a re-analysis of the deposited data

How the results depend on the processing

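The counts of called members in the authors' deposited table stayed within 1.5 times at FDR thresholds of 0.01 and 0.1, with a 2-fold condition and with at least 50 reads, the SMARCA4-null count being 2 or 3. No member was listed in the authors' shorter table, so that alternative gave no value. In the recovered-read tests of HES5 and HEY2, TMM scaling, DESeq2 and, against wildtype, no filter on low counts changed no call. With each library left out in turn, the number of the 2 called was 0 in all 4 fits of the SMARCB1 nulls against wildtype, 0 to 1 in the SMARCA4 nulls and 0 to 1 in the double nulls against wildtype, 0 to 1 in the double against the SMARCB1 nulls, 0 to 2 in the double against the SMARCA4 nulls and 0 to 1 for the departure from additivity. All 3 of these last contrasts gained calls only without the shallower double-null library: HES5 at 2.12 over the SMARCB1 nulls (edgeR, adjusted p = 0.0104) and 1.62 over the SMARCA4 nulls (adjusted p = 0.0302), HEY2 at 2.90 over the SMARCA4 nulls (adjusted p = 0.0147) and its departure at 3.45 (adjusted p = 0.0426). A group left with 1 library was assumed to vary like the others. With all libraries, edgeR's unadjusted p was under 0.05 for 1, 2, 0 and 1 of the 2 genes in the double against the SMARCB1 nulls, the double against the SMARCA4 nulls, the SMARCB1 against the SMARCA4 nulls and the departure, and DESeq2 called 0 in each. HEY2 in the double nulls against wildtype, 0.21 on the log2 scale, turned to -0.09 with TMM, -0.11 with DESeq2, -0.17 without the deeper wildtype library and -0.68 without the deeper double-null library (-0.68 to 0.73 over all left out). HEY2 in the double against the SMARCB1 nulls turned to -0.13 without the deeper double-null library (-0.13 to 1.39), and HES5 in the SMARCB1 against the SMARCA4 nulls, -0.50, turned to 0.37 without the deeper SMARCA4-null library (-1.02 to 0.37). The cause of these turns was not tested. TMM moved the median log2 change of recovered genes by -0.09, -0.11 and -0.30 in the SMARCB1-null, SMARCA4-null and double-null cells, and this shift and the centring on the median gene were chosen after seeing the data. No paired analysis was possible because the recovered libraries are known by depth and not by replicate label. Depth limits HES3 most, with 2 wildtype reads.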

Other observations

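Of the skeletal muscle markers, the 11 measured summed to an implied 162 CPM in the SMARCB1 nulls, 15.96 CPM in the SMARCA4 nulls, 16.9 CPM in the double nulls and 7.16 CPM in wildtype. TNNT1, a slow muscle troponin gene, gave 13.9 CPM of the SMARCA4-null sum and was called higher there (ratio 4.62, FDR 0.0383, in the authors' deposited table). It was the 1 of 11 markers above wildtype in the SMARCA4 nulls, where the median log2 ratio of the list was -1.86 and 8 markers lay under 0.1 CPM. In the SMARCB1 nulls 11 of 11 lay above wildtype, with 0 called. Of all genes, 7.86% were called higher in the SMARCB1 nulls and 7.39% in the SMARCA4 nulls. MYLPF, a fast muscle myosin light chain gene, gave 1188 reads in the deeper and 3 in the shallower SMARCB1-null library. HES3 gave 135 and 103 reads in the same libraries. The part of muscle transcripts in the HES3 values was not tested.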
